A study of Mus musculus with 2 samples.

Results

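The 10 genes described here encode leukocyte integrin chains: Itgam, Itgax, Itgal, Itgae, Itga4, Itga6 and Itga9 for alpha chains, and Itgb1, Itgb2 and Itgb7 for beta chains. The rule names the genes and uses no measured value, although it was set with earlier results of these data known, and all 10 were among the 16819 gene symbols of the deposited matrix of 2668 cells. The cells were CD45+DAPI- leukocytes sorted from dorsal root ganglia (DRG), the clusters of sensory neuron cell bodies beside the spinal cord, of naive wild-type BALB/cAnNRj mice, 3 male and 3 female, perfused before dissection. On average 40 ganglia, from cervical, thoracic and lumbar levels, were pooled, antibody hashtags marked the 6 samples, and all cells ran in a single 10x Genomics 3′ v3 lane. No group received a treatment, and the mice were at least 7 weeks old. All mice shared the lane, and p-values rest on the spread between mice within groups, pooled over all groups of a fit. Sums of the same mouse were treated as independent in the main fits. The hashtags placed all 2668 deposited cells in the 3 male mice, and 1073 cells of a larger deposited matrix in the 3 female mice. In these samples the integrin chains were read as unique molecular identifiers (UMIs, counts of captured RNA molecules), across 4 classes of macrophage, monocytes, both conventional dendritic cell types (cDC1 and cDC2), neutrophils, B cells, and T or NK cells.

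An integrin is a pair of 1 alpha and 1 beta chain that spans the membrane and binds matrix proteins or receptors on other cells. Itgb2 pairs with Itgal to form LFA-1, with Itgam to form Mac-1 (CD11b/CD18) and with Itgax to form CD11c/CD18, receptors for ICAM family proteins and complement fragments that leukocytes use to arrest on vessel walls and to take up opsonized particles. Itgb7 pairs with Itga4 in the gut homing receptor for MAdCAM-1 and with Itgae (CD103) in a receptor for E-cadherin. Itgb1 pairs with Itga4 in VLA-4, which binds VCAM-1 and fibronectin, with Itga6 in a laminin receptor, and with Itga9 in a receptor for tenascin C and osteopontin. RNA of both chains does not show that the pair was at the cell surface.

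Itgam and Itgax are neighbours on mouse chromosome 7 (GRCm38, the same assembly as mm10, GENCODE M21 annotation), where 11055 bases lie between the end of Itgam (ENSMUSG00000030786, chr7:128062640-128118491, plus strand) and the start of Itgax (ENSMUSG00000030789, chr7:128129547-128150657, plus strand). Their 250 bases before the RefSeq start (GRCm38.p6) are printed because these neighbouring genes had different patterns across the cell types. Capitals mark the letters GAGGAA or, on the other strand, TTCCTC, a core that the myeloid factor PU.1 is known to bind. The first window is chr7:128062390-128062639 and the second chr7:128129300-128129549, both on the plus strand.
Itgam: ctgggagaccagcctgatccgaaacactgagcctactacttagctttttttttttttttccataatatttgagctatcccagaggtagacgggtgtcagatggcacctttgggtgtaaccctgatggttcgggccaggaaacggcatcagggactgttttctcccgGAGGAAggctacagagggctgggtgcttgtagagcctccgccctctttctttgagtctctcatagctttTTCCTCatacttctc
Itgax: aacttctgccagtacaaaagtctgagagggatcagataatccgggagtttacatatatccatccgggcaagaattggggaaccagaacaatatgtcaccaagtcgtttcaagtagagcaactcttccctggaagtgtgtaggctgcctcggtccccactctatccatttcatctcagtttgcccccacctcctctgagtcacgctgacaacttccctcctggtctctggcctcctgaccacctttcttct
The Itgam window held these letters at 2 places and the Itgax window at none. Only these exact letters were counted, and whether they bear on the levels of either gene was not tested. RefSeq promoters were given for 6 of the 10 members (Itga4, Itga9, Itgam, Itgax, Itgb1 and Itgb7), of which Itgam and Itgb1 held the motif, and 23.3% of the 32851 promoters of this length held it.

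UMIs were summed per mouse and cell type and are given as CPM, UMIs per 1000000 UMIs of the sum, as mean ± SD over 3 mice. The male sums rested on 1403 macrophages, 97 monocytes, 44 cDC1, 50 cDC2, 323 neutrophils, 164 B cells and 130 T or NK cells, with median depths from 3407 UMIs per cell in B cells to 14442.5 in cDC1, and 23403638 UMIs in all cells. cDC1 of mouse 1 were only 5 cells. Marker genes that the gates did not use were highest in their own type for 6 of 6 in macrophages, cDC1, neutrophils and B cells, 7 of 7 in T or NK cells, 5 of 6 in monocytes, and 4 of 8 in cDC2, whose label was thus the least well borne out. In T or NK cells the basophil and mast cell genes Mcpt8, Prss34, Cpa3 and Ms4a2 summed to 0 to 6433 CPM over the mice (mean 2147). The highest mean of this sum in any other type was 5.03 CPM, in B cells. The part of such cells in the T or NK levels was not tested. Cells that met more than 1 gate (332), among them 38 that met only the macrophage and the cDC2 gate, were left out. Of these, 244 met only the neutrophil and the T or NK gate, of which 234 held a UMI of Cd3d and 0 a UMI of Cd3e. Neutrophil levels of Itgam, Itgb2 and Itgal are therefore also given with a T or NK gate without Cd3d and Nkg7, an alternative added after the data were seen. Among the 97 monocytes, 24 held at least 3 UMIs of the granule genes Elane, Mpo, Prtn3 and Ctsg, and monocyte values are also given without them. Scrublet marked 10 of 3741 cells (0.267%) as doublets, too few for the call to count as a check of doublets.

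Itgb2 (ENSMUSG00000000290, chr10:77530252-77565708, plus strand), the shared beta chain of the CD11 integrins, was detected in all 7 types. Neutrophils were highest, at 348, 384 and 364 CPM in the 3 male mice. Monocytes held 219, 193 and 197 CPM, cDC2 201, 214 and 160.1 CPM and cDC1 160.5, 207 and 201 CPM, and these 3 types and T or NK cells (159 CPM ± 36.9) overlapped with their neighbours in the order. Macrophages lay below them at 75.6, 78.9 and 92.9 CPM, and B cells below all others at 22.0, 30.7 and 22.6 CPM. The neutrophil values did not overlap with those of any other type. Female mice gave the same top and bottom, with 442 CPM ± 170.2 in neutrophils and 28.3 CPM ± 13.4 in B cells.

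Itgam, the CD11b chain, was highest in neutrophils at 208, 255 and 212 CPM. Monocytes (199, 124 and 133 CPM), cDC2 (173, 126 and 119 CPM) and macrophages (97.3, 78.6 and 120.0 CPM) followed and overlapped with each other as neighbours. In cDC1 it was nearly undetected, with 5 UMIs in all 44 cells, all from mouse 3, and B cells and T or NK cells held 6.36 CPM ± 0.862 and 10.8 CPM ± 7.51. A UMI of Itgam was found in 730 of 1403 (52.0%, exact binomial interval 49.4 to 54.7%) of macrophages at a median depth of 8570 UMIs, and in 5 of 164 (3.05%, exact binomial interval 0.997 to 6.97%) of B cells, which should lack it, at a median of 3407. After each cell was thinned to 2000 UMIs the shares were 17.5% of macrophages and 1.31% of B cells. These intervals cover counting error only. With the alternative T or NK gate, neutrophils held 261 CPM ± 43.6 of Itgam and 350.1 CPM ± 5.22 of Itgb2, still the highest of the types.

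Itgax, the CD11c chain, was read mainly in dendritic cells. cDC2 held 72.4, 63.0 and 67.0 CPM and cDC1 57.3, 32.3 and 35.1 CPM, which did not overlap in unscaled CPM, though the difference did not pass the test given below. Macrophages held 13 UMIs in 12566775 (0.935 CPM ± 0.273), monocytes 2, neutrophils 6, T or NK cells 2 and B cells 0 of 164 cells with a UMI, which, by a floor of 3 counts, allows a share of cells with a UMI of up to 1.83%. So of the 2 neighbouring genes, macrophages, monocytes and neutrophils held means of 98.6 to 225 CPM of Itgam and at most 2.03 CPM of Itgax, cDC2 had both, and cDC1 had Itgax and almost no Itgam. Female mice showed the same split, with Itgax at 76.1 CPM ± 34.9 in cDC2, 40.3 CPM ± 36.5 in cDC1 and 0.229 CPM ± 0.396 in macrophages. The female cDC2 and cDC1 values overlapped, and in mouse 1 cDC1 was the higher (82.3 against 39.5 CPM), with 10 cDC1 UMIs over all female mice.

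Itgal (ENSMUSG00000030830, chr7:127296260-127335138, plus strand), the LFA-1 alpha chain, was highest in unscaled CPM in T or NK cells, at 62.3, 101 and 87.9 CPM. Neutrophils held 31.5, 71.3 and 48.8 CPM and monocytes 20.6, 29.7 and 42.1 CPM, and neighbours in this order overlapped throughout, down to B cells (5.70 CPM ± 5.50). With the alternative T or NK gate, neutrophils held 34.3 CPM ± 7.52 of Itgal. The scaling factors of the fit (TMM) were 1.19 to 1.28 in T or NK cells and 0.595 to 0.660 in neutrophils. That scaling raises neutrophils against T or NK cells, and these types were not compared by a test. Macrophages were at the bottom with 2.48, 2.17 and 1.65 CPM, from 24 UMIs. The female T or NK cells held 40.4 CPM ± 8.70, and were below female monocytes (54.0 CPM ± 14.4, 17 cells) and neutrophils (48.2 CPM ± 3.35).

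Itgb7 (ENSMUSG00000001281, chr15:102215995-102231944, minus strand) divided the types into a high and a low group. cDC2 held 382, 334 and 358 CPM, cDC1 332, 278 and 261 CPM, T or NK cells 156, 285 and 255 CPM and monocytes 199, 168 and 244 CPM. B cells (14.5 CPM ± 10.2), neutrophils (8.02 CPM ± 8.70) and macrophages (2.51 CPM ± 1.17) made up the low group, with no value above 25.6 CPM in any male mouse. In female mice monocytes held 353 CPM ± 88.8 from only 17 cells, and macrophages 1.29 CPM ± 1.26.

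Itgae (ENSMUSG00000005947, chr11:73090583-73147446, plus strand), the CD103 chain, was read in cDC1 at 57.3, 149 and 193 CPM, and the lowest of these came from the 5 cells of mouse 1. Itgae UMIs were found in 31 of 44 (70.5%, exact binomial interval 54.8 to 83.2%) of cDC1. The mean share over the 3 mice was 54.5% ± 32.8 (SD), below that interval, which covers counting error only. In cDC2 there were 7 UMIs and all came from 1 cell of mouse 2, while T or NK cells held 4 UMIs and macrophages 3. No UMI was found in the 97 monocytes, the 323 neutrophils or the 164 B cells, which by the same floor allows shares of cells with a UMI of up to 3.09%, 0.929% and 1.83%. These limits hold at each type's depth and are not limits on cells that express the gene. The female cDC1 held 165, 132 and 215 CPM, and female cDC2 and T or NK cells 6.41 CPM ± 11.1 and 6.17 CPM ± 6.81.

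Itga4 (ENSMUSG00000027009, chr2:79255426-79333123, plus strand), which can pair with Itgb7 or Itgb1, was highest in monocytes at 243, 188 and 188 CPM, above the 109, 126 and 179 CPM of cDC2 in every mouse. cDC2, cDC1 (122 CPM ± 19.6), T or NK cells (113 CPM ± 16.7) and B cells (161, 61.3 and 102 CPM) overlapped as neighbours. Macrophages held 37.8, 62.1 and 50.9 CPM and neutrophils 19.7, 23.8 and 33.5 CPM, the lowest. In unscaled CPM, neutrophils, at the top of the order for Itgb2, were thus at the bottom for Itga4.

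Itgb1 (ENSMUSG00000025809, chr8:128685654-128733200, plus strand), the beta chain of the matrix receptors, was at 193, 162 and 205 CPM in macrophages, 197, 183 and 231 CPM in cDC2 and 132, 385 and 207 CPM in T or NK cells, the type that varied most between mice. Monocytes held 106, 129 and 135 CPM and cDC1 80.2, 109.8 and 160.4 CPM. B cells (54.9, 36.8 and 36.7 CPM) and neutrophils (11.8, 13.6 and 34.5 CPM) were below all other types, without overlap between them in unscaled CPM. The scaling factors of the fit (TMM) were 1.28 to 1.35 in B cells and 0.595 to 0.660 in neutrophils, which raises neutrophils against B cells. B cells and neutrophils were not compared by a test.

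Itga6 (ENSMUSG00000027111, chr2:71745616-71858416, plus strand) and Itga9 (ENSMUSG00000039115, chr9:118606690-118901003, plus strand), alpha chains that pair with Itgb1, were highest in macrophages. Itga6 was at 64.4, 57.2 and 64.3 CPM there, at 22.9 CPM ± 6.76 in B cells and 19.4 CPM ± 13.5 in T or NK cells, and its means were 1.87 to 4.11 CPM in the other 4 types. Itga9 was at 24.8, 16.5 and 22.3 CPM in macrophages, from 263 UMIs. The other 6 types held 5 Itga9 UMIs between them, with 0 in monocytes, neutrophils and T or NK cells. An Itga9 UMI was read in 227 of 1403 (16.2%, exact binomial interval 14.3 to 18.2%) of macrophages, and in 0 of 97 monocytes. In female mice the macrophage levels were 56.5 CPM ± 8.09 of Itga6 and 19.2 CPM ± 3.79 of Itga9, and Itga9 was at 0 UMIs in the other 6 female types.

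**Figure D1:**
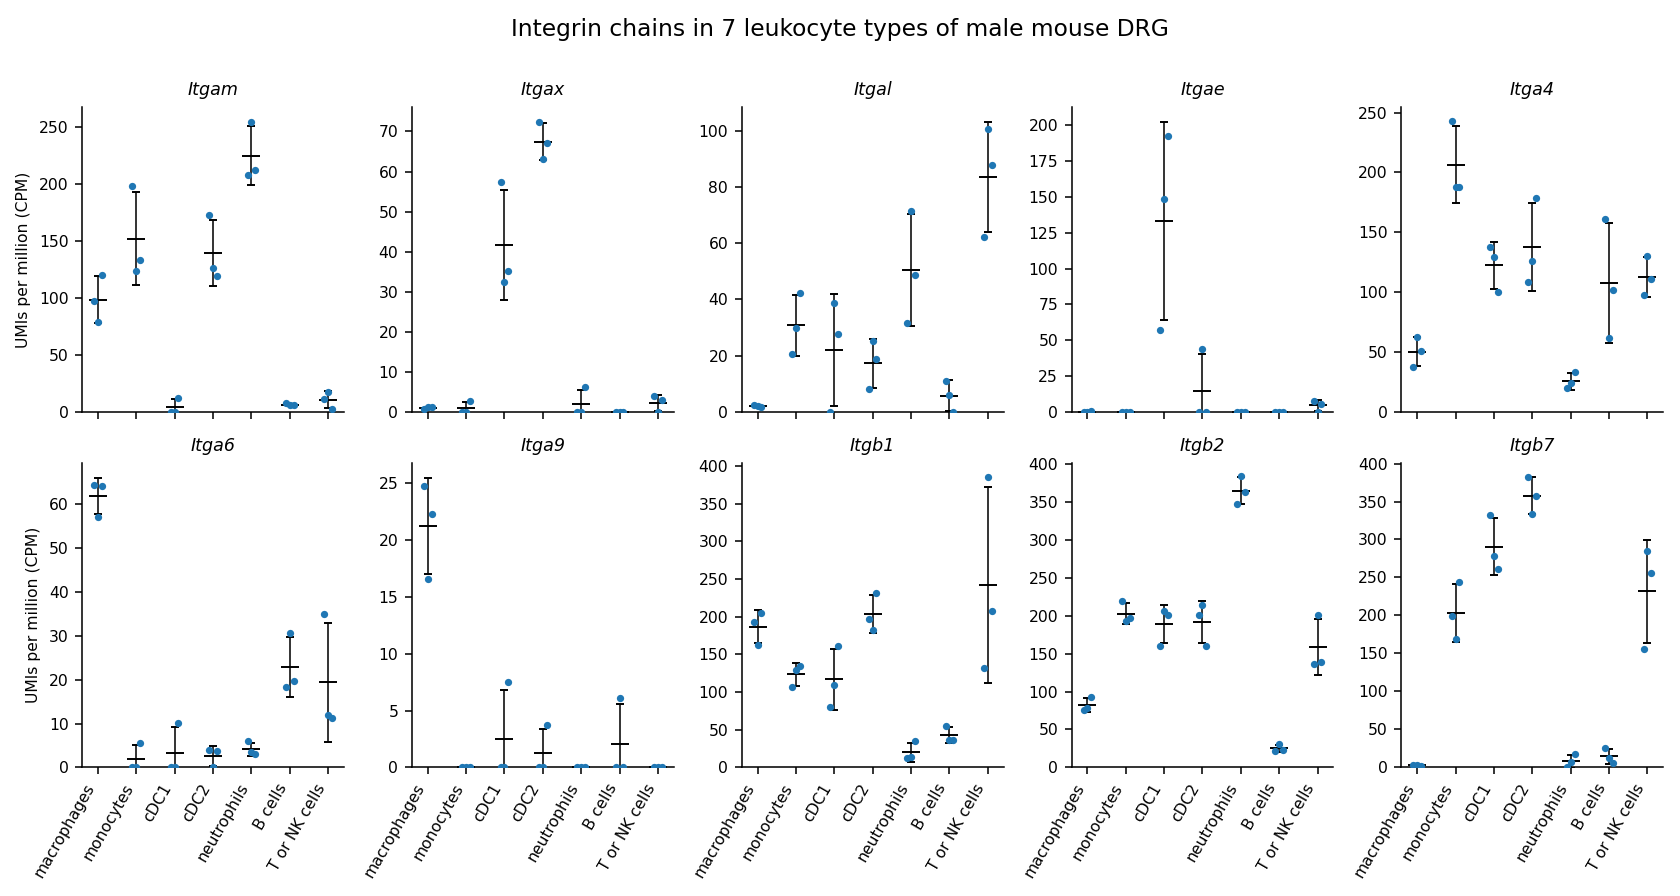
Levels in CPM (UMIs per 1000000, vertical axes, each with its own scale from 0) of the 10 integrin chains in 7 leukocyte types of the 3 male mice. Points are mice, bars are mean and SD. Itgax and Itgae stand out in dendritic cells, Itga6 and Itga9 in macrophages, Itgam and Itgb2 in neutrophils, and Itgb7 is low in macrophages, neutrophils and B cells.

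Macrophages, cells with at least 0.5% of UMIs from C1qa, C1qb and C1qc, were divided by Fcrls and Ccr2, genes known for long-lived tissue macrophages and for monocyte-derived cells. Fcrls alone was read in 636 male cells, both genes in 556, Ccr2 alone in 147 and neither in 64, and the median depths of these classes were 8473.5, 9025, 7977 and 6943.5 UMIs per cell. Itgb2 was lower in the Fcrls-alone class in every male mouse, with 64.4, 73.8 and 86.7 CPM against 111, 110.5 and 126 CPM in the Ccr2-alone class, and the values did not overlap. The cells with both genes held 68.3, 81.6 and 89.9 CPM, close to the Fcrls-alone class. edgeR's quasi-likelihood test gave a log2 fold change of -0.73 (SE 0.20, adjusted p = 0.0224). The call was lost when any of the 3 mice was left out (adjusted p = 0.153, 0.0718 and 0.194 without mouse 1, 2 and 3, with fold changes from -0.75 to -0.69), without TMM scaling (adjusted p = 0.0814), with cells thinned to 2000 UMIs (adjusted p = 0.340), and when the classes were set on such cells (log2 fold change -0.42, adjusted p = 0.328).

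Itgb7 also passed the test (log2 fold change -3.05, SE 0.92, adjusted p = 0.0469) but on few molecules: 3 UMIs in 5506216 of the Fcrls-alone class against 6 in 1195518 of the Ccr2-alone class, a ratio of pooled counts of 9.21 with a counting interval from 1.97 to 56.9. The call was lost without any of the 3 mice (adjusted p = 0.129, 0.577 and 0.0753 without mouse 1, 2 and 3), and also without TMM, with C1q at 1%, with thinned cells or classes set on them, and without the Scrublet doublets (adjusted p from 0.0535 to 0.587). As fitted, 2 of 8 tested members were lower in the Fcrls-alone class, where 4.16% of all 6832 genes were, and 0 were higher, where 2.81% were. The median over the 8 tested members was -0.29 on the log2 scale, against 0.01 over all genes. Itgb7 and Itgal passed the low-count filter of this fit through its monocyte sums (204 CPM ± 38.2 and 30.8 CPM ± 10.8), not through these classes. The count of 8 and this median include both genes, so they do not set the members apart.

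The other members did not pass in this comparison. Itga9 was at 24.6, 20.6 and 21.9 CPM in the Fcrls-alone class and 5.29, 9.20 and 11.8 CPM in the Ccr2-alone class, higher in 3 of 3 mice without overlap (log2 fold change 1.02, SE 0.43, adjusted p = 0.198). Itga6, at 75.2, 62.9 and 65.4 CPM against 52.9, 49.1 and 42.6 CPM, was likewise higher in 3 of 3 mice (log2 fold change 0.41, SE 0.25, adjusted p = 0.431). Itga4 leaned the other way (log2 fold change -0.49, SE 0.26, adjusted p = 0.344). Itgam and Itgb1 had estimates near 0, with Itgam at 92.0 CPM ± 16.2 against 78.1 CPM ± 43.5 (log2 fold change -0.01, SE 0.26, adjusted p = 0.999) and Itgb1 at 182 CPM ± 21.7 against 177 CPM ± 12.1 (log2 fold change -0.08, SE 0.16, adjusted p = 0.877). Itgal, with 8 UMIs in the Fcrls-alone and 4 in the Ccr2-alone class, did not pass either (log2 fold change -1.31, SE 1.06, adjusted p = 0.594). Itgax, with 1 UMI in the Fcrls-alone and 3 in the Ccr2-alone class, and Itgae, with 1 and 0, were below the filter on low counts.

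Several summed levels were set beside these classes. Those of the dissociation genes, the macrophage markers and the platelet genes did not overlap between the classes, and the others did. The summed level of the 6 dissociation genes Fos, Jun, Junb, Atf3, Rhob and Egr1 was 9626 to 16102 CPM in the Fcrls-alone class and 6332 to 7208 CPM in the Ccr2-alone class, and the 6 macrophage markers summed to 45090.5 to 47409 CPM and 30499.5 to 33410.0 CPM. Summed monocyte markers were 905 to 1131 CPM and 656 to 949 CPM, with 1 of 6 at 0 in each, and the 8 cDC2 markers were 543 to 864 CPM and 551 to 1010.1 CPM, with none at 0. The 5 platelet and megakaryocyte genes, among them Pf4, summed to 3378 to 4009 CPM and 905 to 1465 CPM, with 2 and 1 of the 5 at 0. The study reports Pf4 as raised in its CD163+ macrophages, which express Fcrls, so this sum is not specific to platelets. The T or NK markers summed to 0.996 to 3.07 CPM and 0 to 6.14 CPM. The 5 fibroblast genes summed to 52.2 to 159 CPM and 31.7 to 61.4 CPM. The part of any of these sums in the Itgb2 difference was not tested.

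The same contrast in the 3 female mice, whose macrophage classes held 259 Fcrls-alone and 51 Ccr2-alone cells, called 0 of 6 tested members, where 1.94% of all 6392 genes were higher and 1.31% lower in the Fcrls-alone class (3.25% in all). Itgb1 alone among them had an unadjusted p under 0.05 by edgeR, and DESeq2 called 0 of the 4 to which it gave an adjusted p. Itgb7, called in male mice, was below the low-count filter here and was not tested. It had 3 UMIs in the Fcrls-alone class and 0 in the Ccr2-alone class, not the direction of the male call and too few to compare. Itgb2 was 71.6, 60.8 and 59.8 CPM in the Fcrls-alone class and 76.6, 149 and 50.5 CPM in the Ccr2-alone class, overlapping (log2 fold change -0.49, SE 0.33, adjusted p = 0.600). Itgb1 was lower in the Fcrls-alone class in 3 of 3 female mice, at 145, 198 and 183 CPM against 221, 279.7 and 269 CPM (log2 fold change -0.54, SE 0.20, adjusted p = 0.193). A test of the female minus male difference of this contrast, added after the data were seen, called 0 of 5915 genes by edgeR. Its estimate was 0.20 (SE 0.36, unadjusted p = 0.578) for Itgb2 and -0.50 (SE 0.24, unadjusted p = 0.0513) for Itgb1, both with an adjusted p of 1.0.

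**Figure D2:**
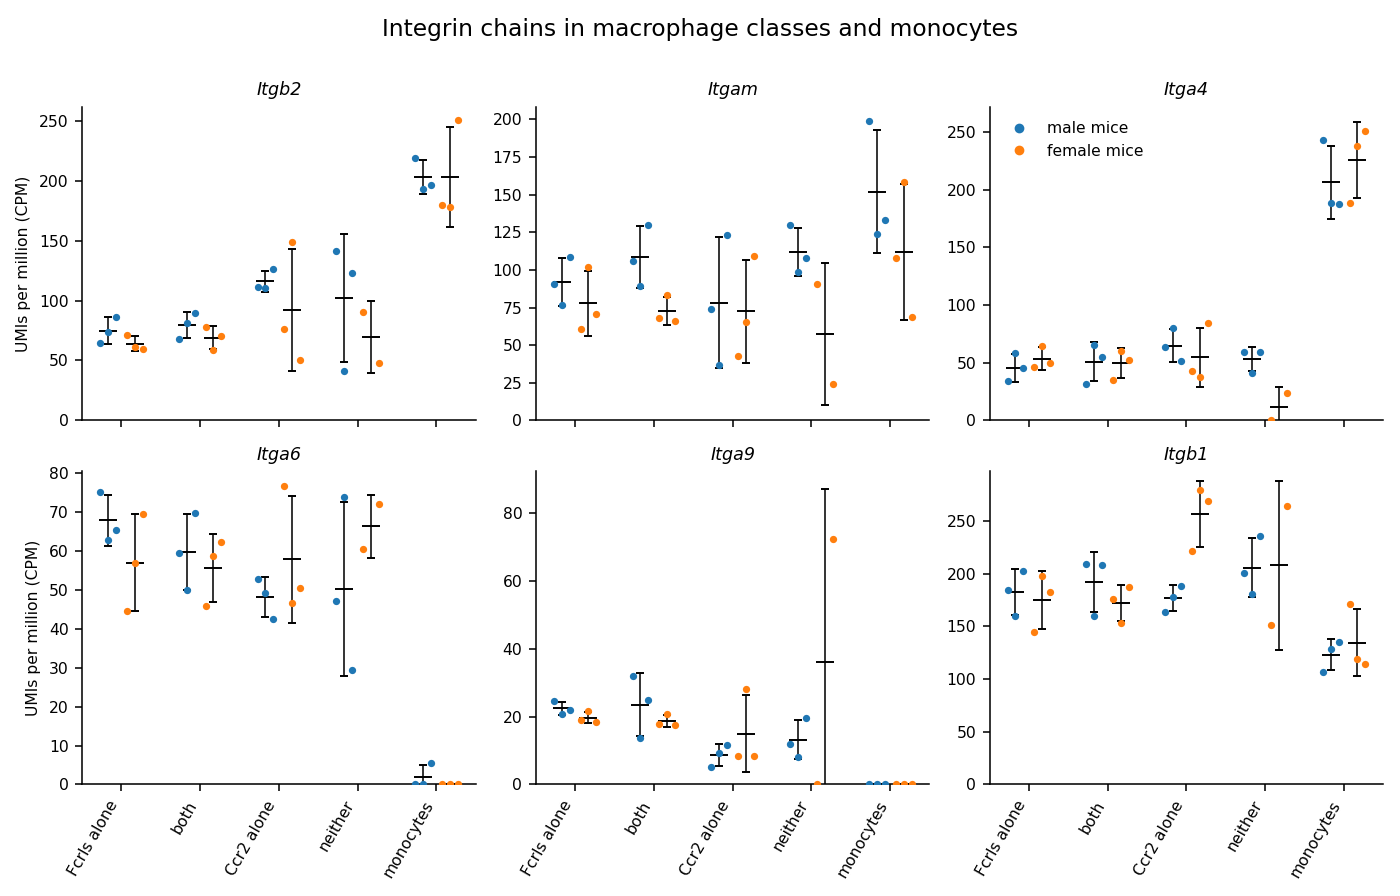
Levels in CPM (UMIs per 1000000, vertical axes from 0) of 6 integrin chains in the 4 macrophage classes and in monocytes, with male and female mice side by side. Points are mice and bars are mean and SD. The female class with neither gene has 2 mice, since a sum of under 10 cells was left out, and the female monocyte sums rest on 5 to 7 cells. Itgb2 of male mice is at 64.4 to 86.7 CPM with Fcrls alone and at 110.5 to 126 CPM with Ccr2 alone, and Itga6 and Itga9 are near 0 in monocytes.

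Female and male macrophages as a whole were compared in a fit of 3 against 3 mice, which called 0.0631% of 7923 genes (0.0252% higher and 0.0379% lower in female mice) and 0 of 6 tested members by edgeR and by DESeq2. Itgam was 63.2, 87.6 and 73.0 CPM in female and 97.3, 78.6 and 120.0 CPM in male mice (log2 fold change -0.41, SE 0.16, adjusted p = 0.866, unadjusted p = 0.0209), and it was the sole member with an unadjusted p under 0.05. Itgb2 was 75.5, 67.4 and 64.2 CPM in female mice, below all 3 male values by a small margin (log2 fold change -0.25, SE 0.13, adjusted p = 0.908). The interval of the difference, an approximate 95% interval, ran from -0.25 to 0.19 for Itgb1 and from -0.38 to 0.15 for Itga6 on the log2 scale.

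Monocytes are the blood cells from which some tissue macrophages derive, and they differed from macrophages in 6 of 9 tested members, 4 higher and 2 lower, where 16.9% and 18.2% of all 5711 genes were called. Itga6, among those lower, passed the low-count filter of this fit through macrophages, so its place among the 9 rests on the group where it is high. Itgb7 differed most, at 204 CPM ± 38.2 against 2.51 CPM ± 1.17 (log2 fold change 6.24, SE 0.36, adjusted p = 9.21e-14). Itgal was 30.8 CPM ± 10.8 against 2.10 CPM ± 0.418 (log2 fold change 3.69, SE 0.46, adjusted p = 2.44e-07), and Itga4 was higher too (log2 fold change 1.65, SE 0.23, adjusted p = 9.80e-07). Itgb2 was 203 CPM ± 14.2 against 82.5 CPM ± 9.19 (log2 fold change 0.94, SE 0.16, adjusted p = 3.51e-05). Itga6 was lower in monocytes, with 4 UMIs in 1206208 against 782 in 12566775 (log2 fold change -4.52, SE 0.46, adjusted p = 6.18e-09), and so was Itgb1 (log2 fold change -0.93, SE 0.26, adjusted p = 0.00605). Itga9 was not tested in this fit because of the filter on low counts. With 0 monocyte UMIs, its pooled level was at least 8.41-fold higher in macrophages, by a floor of 3 counts over the monocyte sums. All 6 called members moved the same way in 3 of 3 mice.

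Itgam was 152 CPM ± 40.8 in monocytes and did not pass (log2 fold change 0.26, SE 0.21, adjusted p = 0.371), but it did without the 24 cells that carried granule genes (log2 fold change 0.67, adjusted p = 0.0147). The monocytes without them held 192 CPM ± 37.3 of Itgam, 274 CPM ± 64.7 of Itga4 and 223 CPM ± 29.1 of Itgb2. Itgb7 was lower without them, at 169 CPM ± 30.0, from 134 UMIs against 266 with them. Itgal was at 35.6 CPM ± 13.1 and Itgb1 at 124 CPM ± 17.3 without them. Without TMM scaling, which moved the median of all genes from 0.00 to 0.34 in this comparison, Itgam passed as well (adjusted p = 0.0269) and Itgb1 no longer did (adjusted p = 0.0690).

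Against the Ccr2-alone macrophages alone, 3 of 8 tested members were higher in monocytes and 3 lower, where 11% and 15.4% of 6832 genes were called (26.4% in all). Itgb7 and Itgal, among those higher, passed the low-count filter of this fit through the monocyte sums. Their place among the 8 thus rests on the group where they are high, and the count does not set the members apart. Itgb7 (log2 fold change 4.97, SE 0.41, adjusted p = 1.34e-09), Itgal (log2 fold change 2.85, SE 0.74, adjusted p = 0.00538) and Itga4 (log2 fold change 1.34, SE 0.25, adjusted p = 0.000273) were higher. Itga6 (log2 fold change -4.13, SE 0.52, adjusted p = 1.31e-06) and Itgb1 (log2 fold change -0.89, SE 0.18, adjusted p = 0.000616) were lower. Itga9 passed as well (adjusted p = 0.00170), with 0 UMIs in monocytes and 12 in the Ccr2-alone class, at least 4.04-fold higher in the Ccr2-alone class by the same floor. Itgb2 was 219, 193 and 197 CPM against 111, 110.5 and 126 CPM, higher in 3 of 3 mice, and did not pass (log2 fold change 0.41, SE 0.20, adjusted p = 0.148). It passed without the granule gene cells (adjusted p = 0.0207) and without TMM (adjusted p = 0.00642). Itgam likewise did not pass (log2 fold change 0.43, SE 0.28, adjusted p = 0.282) but did without those cells (adjusted p = 0.0173), without TMM (adjusted p = 0.0362) and without mouse 3 (log2 fold change 1.32, adjusted p = 0.0136). With cells thinned to 2000 UMIs only 1 member was called, Itgb7. Itga4 (adjusted p = 0.129) and Itgb1 (adjusted p = 0.10) no longer passed, and Itgal, Itga6 and Itga9 fell below the low-count filter and were not tested. This contrast and the one before share the monocyte sums.

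cDC1 and cDC2 differed in 2 of 9 tested members, where 11.2% of all genes were called. Itgae was higher in cDC1 (log2 fold change 3.95, SE 0.73, adjusted p = 0.000759), where 5.87% of all genes were, and Itgam was lower (log2 fold change -3.99, SE 0.50, adjusted p = 1.98e-06), where 5.34% were. Itgae passed the low-count filter of this fit through its cDC1 sums, so its place among the 9 tested members rests on the group where it is high. Without mouse 3, which gave 27 of the 44 cDC1, the Itgae difference did not pass (log2 fold change 2.75, adjusted p = 0.143), and neither did it by DESeq2 (adjusted p = 0.622), while it passed without mouse 2, whose single cell gave the cDC2 UMIs. Itgax (log2 fold change -0.65, SE 0.47, adjusted p = 0.466), Itgb7 (log2 fold change -0.18, SE 0.28, adjusted p = 0.794) and Itgb1 (log2 fold change -0.48, SE 0.33, adjusted p = 0.430) did not pass. In unscaled CPM each was lower in cDC1 than in cDC2 of the same mouse in 3 of 3 mice. Unscaled values leaned that way over all genes, with a median of -0.21 without TMM, and the share of all genes that did the same was not computed.

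cDC2 against macrophages gave 6 higher and 1 lower of 9 tested members, where 12.5% and 12.6% of all genes were called. Itgax passed the low-count filter of this fit through dendritic cells, Itga6 through macrophages and Itgae through cDC1. The place of Itgax and Itga6 among the 9 thus rests on the groups where they are high. Itgb7 (log2 fold change 7.21, SE 0.36, adjusted p = 1.39e-14) and Itgax (log2 fold change 5.72, SE 0.50, adjusted p = 1.19e-09) had the largest fold changes. Itga4 (log2 fold change 1.29, SE 0.26, adjusted p = 0.000353), Itgb2 (log2 fold change 1.03, SE 0.18, adjusted p = 4.20e-05) and Itgal (log2 fold change 2.84, SE 0.71, adjusted p = 0.00299) were also higher. Itgal rested on 11 cDC2 UMIs and did not pass without mouse 2 (adjusted p = 0.0568) or mouse 3 (adjusted p = 0.0945), and Itga4 did not pass without mouse 3 (adjusted p = 0.0611). With cells thinned to 2000 UMIs only 1 member was called, Itgb7. Itga4 (adjusted p = 0.130) and Itgb2 (adjusted p = 0.0608) did not pass, and Itgax, Itgal, Itgae and Itga6 fell below the low-count filter and were not tested. The sixth call, Itgae (adjusted p = 0.0109), came from the 7 UMIs of 1 cell against 3 in macrophages, a ratio of pooled counts of 43.4 with a counting interval from 9.90 to 260.0, and without mouse 2 its fold change was -1.86 (adjusted p = 0.821). Itga6 was lower (log2 fold change -4.48, SE 0.59, adjusted p = 8.95e-07). Itgam (log2 fold change 0.34, SE 0.23, adjusted p = 0.321) and Itgb1 (log2 fold change -0.02, SE 0.26, adjusted p = 0.979) did not pass.

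Neutrophils and monocytes differed in 6 of 9 tested members (1 of the 9, Itgae, with 0 UMIs in both), in a comparison where 49.8% of all genes were called. This count does not set the members apart. Itgb2 (log2 fold change 1.71, SE 0.16, adjusted p = 1.80e-09), Itgam (log2 fold change 1.43, SE 0.22, adjusted p = 5.17e-06) and Itgal (log2 fold change 1.39, SE 0.37, adjusted p = 0.00289) were higher in neutrophils, where 24.6% of all genes were. Itgb7 (log2 fold change -3.45, SE 0.40, adjusted p = 5.69e-08), Itga4 (log2 fold change -2.02, SE 0.30, adjusted p = 2.24e-06) and Itgb1 (log2 fold change -1.51, SE 0.36, adjusted p = 0.00108) were lower, where 25.2% were. The 3 chains that form LFA-1 and Mac-1 were thus higher, and Itgb7, Itga4 and Itgb1 lower, each in 3 of 3 mice. Itga6 did not pass (log2 fold change 1.11, SE 0.87, adjusted p = 0.302). These folds are scaled by TMM and differ from the ratios of CPM. The TMM factors were 0.595 to 0.660 in neutrophils and 1.159 to 1.163 in monocytes. The 6 neutrophil markers took 52162 to 65424 CPM in neutrophils, and their part in this gap was not tested. Without TMM the median of all genes was -0.92, and the Itgal difference was 0.49 (adjusted p = 0.258). With the alternative T or NK gate, the same 6 members passed, Itgal with a fold change of 1.06 (adjusted p = 0.0101).

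B cells held less of 4 of 9 tested members than T or NK cells and more of none, where 13.5% and 10.8% of all genes were called. Itgb7 (log2 fold change -4.10, SE 0.46, adjusted p = 6.33e-08), Itgal (log2 fold change -4.05, SE 0.62, adjusted p = 1.09e-05), Itgb2 (log2 fold change -2.75, SE 0.27, adjusted p = 9.22e-09) and Itgb1 (log2 fold change -2.49, SE 0.37, adjusted p = 6.39e-06) were lower, each in 3 of 3 mice and without overlap. Itga4 (log2 fold change -0.06, SE 0.30, adjusted p = 0.917) and Itga6 (log2 fold change 0.08, SE 0.54, adjusted p = 0.951) did not pass. The T or NK sums also held basophil and mast cell genes, unevenly between mice, as given above. Over all 7 types, 9 of 9 tested members differed in the overall test, where 87.4% of all genes were called, so that this count does not set the members apart.

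**Figure D3:**
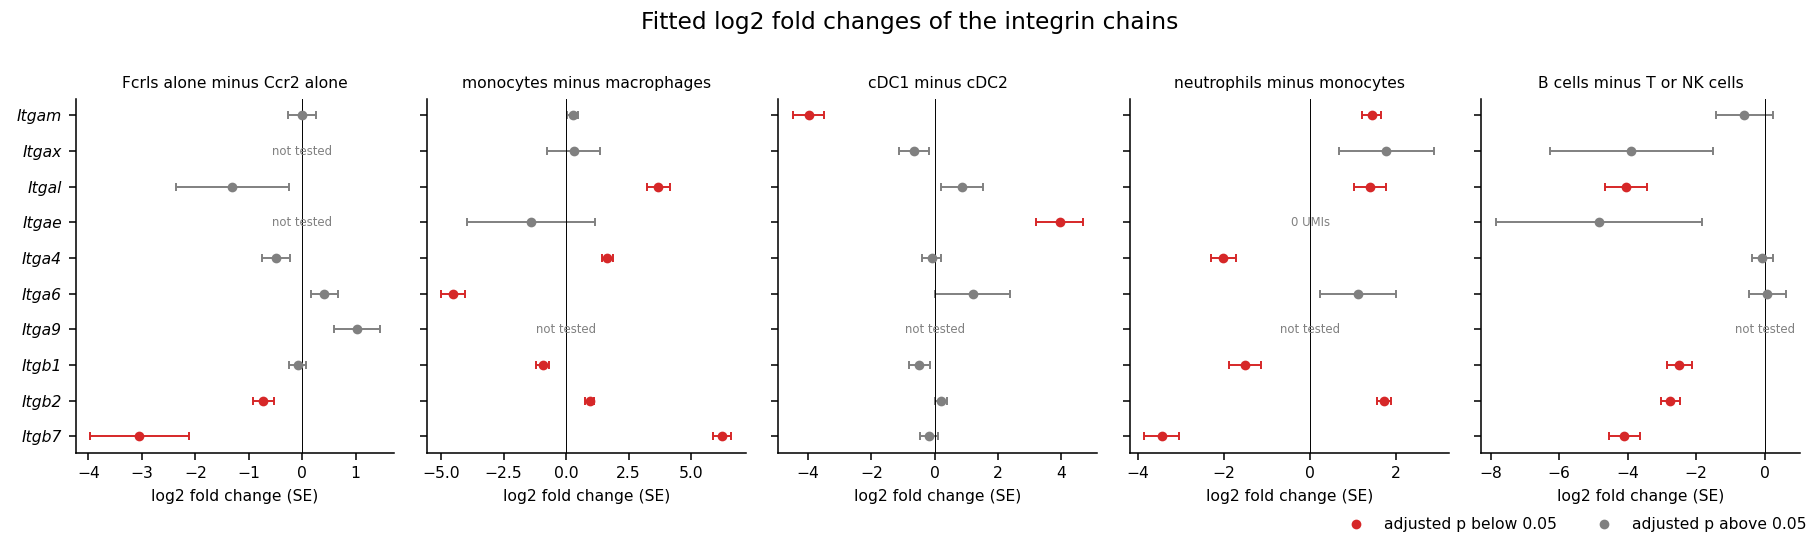
Fitted log2 fold changes (horizontal axes, each with its own scale) with SE for the 10 integrin chains in 5 comparisons of male mice, red where the adjusted p was below 0.05. Itgae was at 0 UMIs in both neutrophils and monocytes and has no point there, and Itga9, Itgax and Itgae are marked where they were not tested. Itgb7 and Itgb2 are each red in 4 of the 5 panels, all but cDC1 against cDC2.

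Other genes of the pathway were taken from 3 lists: 17 other integrin chains, 30 genes of integrin activation and adaptors, and 25 ligands and partners, of which 16, 29 and 21 were in the matrix. Of the other chains, Itgb5, a beta chain for vitronectin receptors, was lower in monocytes than in macrophages (42.4 CPM ± 4.07 against 241 CPM ± 21.7, adjusted p = 9.76e-11), and Itga1, a collagen receptor chain, was higher in monocytes (32.3 CPM ± 20.9 against 0.363 CPM ± 0.414, adjusted p = 9.06e-08). No further chain of that list passed the filter in the cell type fit. Between the macrophage classes, 1 of 23 tested adaptors was higher and 2 lower in the Fcrls-alone class, and 1 of 10 tested ligands and partners was higher and 2 lower, where 2.81% of all genes were higher and 4.16% lower. Tln2, a talin that links beta chains to actin, was higher with Fcrls alone (34.6 CPM ± 6.61 against 2.49 CPM ± 2.26, adjusted p = 0.000280), and Cytip, a regulator of integrin signalling (42.6 CPM ± 19.5 against 107 CPM ± 38.7, adjusted p = 0.00299), and Flna, filamin A (33.8 CPM ± 6.45 against 72.8 CPM ± 21.2, adjusted p = 0.00349), were lower. Among ligands, Vcam1, the VLA-4 ligand, was higher (31.0 CPM ± 16.3 against 2.49 CPM ± 2.26, adjusted p = 0.0120) and Spp1, osteopontin, lower (30.6 CPM ± 15.9 against 141 CPM ± 37.4, adjusted p = 0.000188), as was F11r (10.2 CPM ± 3.58 against 42.4 CPM ± 5.45, adjusted p = 0.000297), a junction protein that binds LFA-1. In female mice 1 of 22 tested adaptors was higher and 1 lower, and 0 of 7 ligands and partners higher and 3 lower, where 1.94% and 1.31% of all genes were. These were Tln2, with 71 UMIs against 0, Cytip (41.8 CPM ± 0.824 against 169 CPM ± 84.6, adjusted p = 0.000339), Spp1 (30.4 CPM ± 17.9 against 175 CPM ± 28.3, adjusted p = 5.09e-05), F11r (7.05 CPM ± 3.70 against 51.0 CPM ± 41.6, adjusted p = 0.00682) and Icam1, the LFA-1 ligand (151 CPM ± 18.9 against 275 CPM ± 109, adjusted p = 0.0363). Flna (log2 fold change -0.89, SE 0.38, adjusted p = 0.287) and Vcam1 (log2 fold change 2.76, SE 1.09, adjusted p = 0.219), called in male mice, did not pass there.

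In monocytes against macrophages, 9 of 25 tested adaptors were higher and 1 lower, with a median of 0.29 on the log2 scale against 0.00 over all genes, where 16.9% of all genes were higher and 18.2% lower. Without TMM they were 15 and 0. Rasgrp2, which activates Rap1 ahead of integrin opening, was higher (132 CPM ± 44.7 against 8.15 CPM ± 1.29, adjusted p = 1.70e-12), as was Cytip (732 CPM ± 148 against 65.4 CPM ± 20.4, adjusted p = 2.66e-11). Of 9 tested ligands and partners 5 were higher and 3 lower, among them fibronectin, Fn1 (648 CPM ± 42.7 against 8.06 CPM ± 5.10, adjusted p = 3.05e-11), which is also 1 of the monocyte markers, and complement C3 (203 CPM ± 7.82 against 6.37 CPM ± 2.26, adjusted p = 2.75e-12), which yields a Mac-1 ligand. In neutrophils against monocytes, 15 of 25 tested adaptors were higher and 1 lower (median 0.67, all genes -0.02), where 24.6% and 25.2% of all genes were. In CPM, 9 of these calls moved that way in each of the 3 mice, and without TMM 4 adaptors were higher and 7 lower, so that the direction of this list depended on the scaling. The actin crosslinker Actn1 was at 141 CPM ± 11.9 against 2.55 CPM ± 2.24, adjusted p = 6.99e-12 and zyxin, Zyx, at 285 CPM ± 34.9 against 186 CPM ± 33.5, adjusted p = 8.05e-06. Of 9 tested ligands and partners 0 were higher and 3 lower. B cells had 3 of 25 tested adaptors higher and 7 lower than T or NK cells, where 10.8% and 13.5% of all genes were. Skap1, also a T or NK marker, had 0 UMIs in B cells and 293 in T or NK cells, while the kinase Syk was higher in B cells (207 CPM ± 19.7 against 17.1 CPM ± 4.51, adjusted p = 3.67e-10). cDC1 had 1 adaptor higher and 4 lower than cDC2 of 25 tested, where 5.87% and 5.34% of all genes were, with Syk lower (41.1 CPM ± 8.12 against 135 CPM ± 24.5, adjusted p = 0.000565). The lists were not tested as sets.

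**Figure D4:**
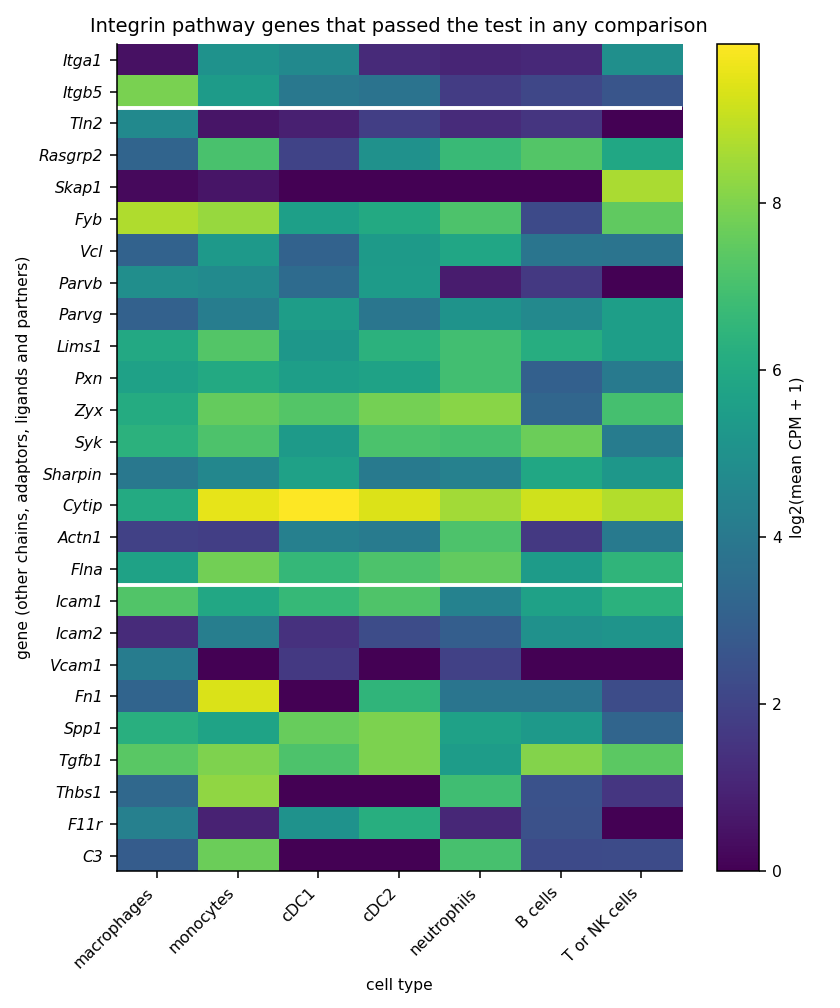
Mean level over 3 male mice, as log2(CPM + 1) in colour, of chosen genes of 3 pathway lists (rows) in 7 cell types (columns). White lines part other chains, adaptors, and ligands and partners. The chosen genes had the largest fold changes of their list in a comparison, among those called and moving alike in each mouse. Further genes of the lists passed a test and are not shown. Fn1 and Thbs1 are brightest in monocytes, Skap1 in T or NK cells, and Itgb5 and Fyb in macrophages.

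For each chain, the 3 genes with the most similar pattern were listed by Pearson's r of log2(CPM + 10) over 30 sums of the male mice, among 7820 genes. The sums share mice and differ in depth, and these values describe likeness only. Itgae was most like Snx22 (r = 0.93), Xcr1 (r = 0.92) and Gcsam (r = 0.91), of which Xcr1 was used to gate cDC1. Itgax was most like Flt3 (r = 0.90), Ryr1 (r = 0.87) and Nectin1 (r = 0.87), and Itgam Ccr1 (r = 0.93), Sirpa (r = 0.93) and Hacd4 (r = 0.92). Itgb2 was most like Zyx (r = 0.92), Srgn (r = 0.89) and Anxa1 (r = 0.89), and Itgal Prdx6 (r = 0.85), Esyt2 (r = 0.79) and Myl6 (r = 0.79), the lowest values of the 10 genes. Itgb7 was most like Uck2 (r = 0.92), Tiam1 (r = 0.92) and Arhgap26 (r = 0.91). For the chains high in macrophages, Itga6 was most like 1700017B05Rik (r = 0.91), Sesn1 (r = 0.91) and St3gal6 (r = 0.90), and Itga9 Hpgds (r = 0.93), Cbr2 (r = 0.92) and Slco2b1 (r = 0.92). Itgb1 was most like Ssbp4 (r = 0.93), Gpr183 (r = 0.91) and Lgals1 (r = 0.90), and Itga4 Rplp0 (r = 0.90), Pabpc1 (r = 0.88) and Sec61b (r = 0.87).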

How the data were processed

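The authors sequenced 1 gene expression and 1 hashtag library of sorted CD45+DAPI- DRG cells and aligned them to mm10 with Cell Ranger 3.1.0. The deposited values are raw UMI counts per gene or hashtag and cell, not normalized. Columns of cells were assigned to mice here with Seurat 5.3.0 (HTODemux, quantile 0.99, over all barcodes of the larger matrix), followed by the study's filters of over 200 and under 5000 genes and under 5% mitochondrial UMIs. The male cells that remained were exactly the 2668 deposited cells.

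Gates were set on raw UMIs: macrophages by C1qa, C1qb and C1qc at 0.5% of UMIs or more, cDC1 by 2 UMIs of Xcr1 and Clec9a, cDC2 by 3 UMIs of Cd209a, neutrophils by S100a8 and S100a9 at 2% or more, B cells and T or NK cells by 3 UMIs of their genes, and monocytes, among the cells left, by a Csf1r UMI, 5 UMIs of monocyte genes and under 2 of Siglech. Counts were summed per mouse and group. Genes kept by filterByExpr were fitted with TMM scaling by edgeR 4.0.16 (quasi-likelihood test, R 4.3.3), in 1 fit over the male macrophage classes and monocytes and another over the 7 male cell types, and p-values were adjusted by Benjamini-Hochberg over all genes in a fit, with a threshold of 0.05. Of the members, 8, 9, 6 and 6 passed the filter in the male class, cell type, female class and sex fits. A gene can pass this filter through a group where it is high. Itgb7 and Itgal entered the male class fit through monocytes. In the cell type fit Itgae entered through cDC1, Itgax through dendritic cells and Itga6 through macrophages. Sums of under 10 female cells were left out of the female class fit. Scripts were tested on simulated data.

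The members, pathway lists and gates were chosen with earlier results of these data known. All 10 members are reported. From each list, up to 5 genes per comparison could be named, those with the largest fold change among the ones called and moving alike in 3 of 3 mice. Sums with the same mouse number come from the same mouse, by its hashtag, and so are paired (mean correlation of their deviations 0.0188 to 0.145, against -0.0606 to -0.00816 between mice), and the fit with mouse as block was an alternative. Other alternatives were DESeq2 1.42.0, no TMM, no filter, other gates and classes, thinning to 2000 UMIs, Scrublet (scanpy 1.11.5) and leaving out each mouse. The T or NK gate without Cd3d and Nkg7, the monocytes without granule gene cells and the female minus male test were added after the data were seen.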

Additional observations from a re-analysis of the deposited data

How the results depend on the processing

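Of the member results recomputed under the alternatives, 754 kept their direction and side of the threshold, 26 lost a call, 7 gained one and 48 changed sign. Members without an adjusted p under an alternative, as when below its low-count filter, are not in these counts. Called members that dropped out in this way are thus not among the 26. All 48 sign changes were of differences that were not called, except Itgae in cDC2 against macrophages. With each cell thinned to 2000 UMIs, the genes called numbered 239 against 476 for Fcrls-alone against Ccr2-alone macrophages, 519 against 1805 for monocytes against Ccr2-alone macrophages, 678 against 2007 for monocytes against macrophages, 135 against 640 for cDC1 against cDC2, 435 against 1434 for cDC2 against macrophages, 1196 against 2845 for neutrophils against monocytes, 583 against 1386 for B cells against T or NK cells, 1909 against 4989 for any difference among 7 cell types, 83 against 208 for Fcrls-alone against Ccr2-alone macrophages, female mice and 3 against 5 for female against male macrophages. With classes set on thinned cells they were 258 for Fcrls-alone against Ccr2-alone macrophages and 121 for Fcrls-alone against Ccr2-alone macrophages, female mice. Without the low-count filter they were 8184 against 4989 for any difference among 7 cell types and 79 against 5 for female against male macrophages. Leaving out each mouse in turn gave 195 to 254 for Fcrls-alone against Ccr2-alone macrophages, 1003 to 1454 for monocytes against Ccr2-alone macrophages, 1278 to 1753 for monocytes against macrophages, 290 to 433 for cDC1 against cDC2, 915 to 1095 for cDC2 against macrophages, 1892 to 2666 for neutrophils against monocytes, 753 to 1252 for B cells against T or NK cells, 125 to 127 for Fcrls-alone against Ccr2-alone macrophages, female mice and 5 to 53 for female against male macrophages. The members called then numbered 0 to 0 for Fcrls-alone against Ccr2-alone macrophages, against 2 and 1 to 2 for cDC1 against cDC2, against 2. Under other settings the members called were, for Fcrls-alone against Ccr2-alone macrophages 0 without TMM, 1 with C1q at 1%, 0 with classes set on thinned cells, 0 thinned to 2000 UMIs and 1 without Scrublet doublets, for monocytes against Ccr2-alone macrophages 1 thinned to 2000 UMIs, for cDC1 against cDC2 1 by DESeq2 and 1 thinned to 2000 UMIs, for cDC2 against macrophages 1 thinned to 2000 UMIs and for any difference among 7 cell types 5 thinned to 2000 UMIs. In Fcrls-alone against Ccr2-alone macrophages, Itgam (-0.01 as reported) became 0.068 by DESeq2, 0.11 without TMM, 0.056 without the low-count filter, 0.011 with the mouse as block, 0.046 with C1q at 1%, 0.0069 with cells of several gates kept, 0.0063 thinned to 2000 UMIs and -0.20 to 0.60 with each mouse left out (0.60 without mouse 3), and Itgb1 (-0.08 as reported) became 0.032 without TMM, 0.050 thinned to 2000 UMIs and -0.13 to 0.00022 with each mouse left out (0.00022 without mouse 2). In monocytes against macrophages, Itgae (-1.41 as reported) became 1.19 by DESeq2, and Itgax (0.30 as reported) became -2.46 to 0.61 with each mouse left out (-2.46 without mouse 3). In cDC1 against cDC2, Itga4 (-0.10 as reported) became -0.31 to 0.34 with each mouse left out (0.34 without mouse 3), and Itga6 (1.20 as reported) became -3.50 to 1.76 with each mouse left out (-3.50 without mouse 3). In cDC2 against macrophages, Itgb1 (-0.02 as reported) became 0.13 without TMM, 0.23 thinned to 2000 UMIs, 0.0039 without Scrublet doublets and -0.086 to 0.063 with each mouse left out (0.063 without mouse 1), and Itgae (4.73 as reported) became -1.86 to 6.28 with each mouse left out (-1.86 without mouse 2). In B cells against T or NK cells, Itga4 (-0.06 as reported) became 0.017 without TMM and -0.55 to 0.21 with each mouse left out (0.21 without mouse 2 and 0.062 without mouse 3), and Itga6 (0.08 as reported) became -0.032 with the other T or NK gate and -0.27 to 0.90 with each mouse left out (-0.27 without mouse 2 and -0.19 without mouse 3). In Fcrls-alone against Ccr2-alone macrophages, female mice, Itga4 (-0.05 as reported) became 0.10 without the low-count filter, 0.13 with C1q at 1%, 0.036 with classes at 2 UMIs and -0.37 to 0.41 with each mouse left out (0.41 without mouse 3), and Itga6 (-0.01 as reported) became 0.15 without the low-count filter, 0.040 with C1q at 1%, 0.10 with cells of several gates kept and -0.34 to 0.43 with each mouse left out (0.43 without mouse 1), and Itgam (0.08 as reported) became -0.036 with C1q at 1% and -0.18 to 0.54 with each mouse left out (-0.035 without mouse 1 and -0.18 without mouse 2), and Itgb2 (-0.49 as reported) became -0.77 to 0.061 with each mouse left out (0.061 without mouse 2). In female against male macrophages, Itgb1 (-0.03 as reported) became 0.12 thinned to 2000 UMIs and -0.12 to 0.024 with each mouse left out (0.0024 without male mouse 1, 0.0047 without female mouse 1 and 0.024 without male mouse 3), and Itga4 (-0.02 as reported) became 0.0069 with C1q at 1%, 0.056 with cells of several gates kept, 0.21 thinned to 2000 UMIs and -0.14 to 0.15 with each mouse left out (0.10 without female mouse 1 and 0.15 without male mouse 2), and Itga6 (-0.11 as reported) became 0.11 thinned to 2000 UMIs. Without TMM the share of called genes that were higher in the first group moved from 40.3 to 55.5% for Fcrls-alone against Ccr2-alone macrophages (median of all genes 0.12), 41.8 to 70.7% for monocytes against Ccr2-alone macrophages (median of all genes 0.34), 48.2 to 73.5% for monocytes against macrophages (median of all genes 0.34), 52.3 to 34.5% for cDC1 against cDC2 (median of all genes -0.21), 49.8 to 62.5% for cDC2 against macrophages (median of all genes 0.11) and 49.3 to 14.5% for neutrophils against monocytes (median of all genes -0.92), and by DESeq2 from 59.6 to 41.3% in the female classes. With the mouse as a replicate block, the fold change of Itgb2 between the macrophage classes was -0.71 (adjusted p = 0.00803), and no call of a member changed under the block. Causes of these changes were not tested.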
